A study of Homo sapiens with 4 samples.

Results

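The long non-coding RNAs (lncRNAs) MALAT1, NEAT1, GAS5, SNHG1, SNHG5, SNHG12, MEG3, H19, PVT1 and DANCR were examined as a set of abundant or growth-linked transcripts. Members were taken as every probe set of the expression array whose annotation gave exactly 1 gene and whose gene was one of these 10. This rule found 25 probe sets among 54613, and 5 of the 10 genes were measured: MALAT1 by 12 probe sets, MEG3 by 10, and GAS5, DANCR and PVT1 by 1 each. NEAT1, SNHG1, SNHG5, SNHG12 and H19 were listed only on probe sets that also named small RNAs encoded within them, as were 4 further probe sets each of GAS5 and PVT1. These 24 probe sets were not used here, because a probe set with several names does not settle which RNA it reads.

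AGS, an established human stomach cancer cell line, was profiled on 2 arrays of control cells, in which PRMT6 is wild type, and on 2 arrays of PRMT6 knockout cells. PRMT6 is a protein arginine methyltransferase that modifies arginine 2 of histone H3. Per the labels' protocols, Cas9 and 1 guide against PRMT6 were delivered by lentivirus, puromycin was used for selection, and limiting dilution gave the knockout clones. The labels do not say which clone each knockout array holds, nor what vector the control cells carried, so a difference between clones and an effect of the knockout cannot be told apart. They also do not say that arrays of a group came from separate cultures, and p-values then measure only the spread between these arrays, which may be technical.

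These lncRNAs act in different compartments. MALAT1 is a nuclear RNA that gathers in speckles, the stores of splicing factors; its mature 3′ end is made by RNase P cleavage and is not a usual poly(A) tail. GAS5 and DANCR are host genes: small nucleolar RNAs (snoRNAs), which guide the chemical modification of ribosomal RNA, are cut from their introns, while the spliced remainder is often short-lived. MEG3 is made from the maternal chromosome of an imprinted cluster and is silenced in many tumours, and PVT1 is transcribed beside the oncogene MYC.

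Each value is a log2 intensity; each change is the knockout mean minus the control mean, and SE is limma's moderated standard error. PRMT6 itself, read by 1 probe set, stood at 8.03 and 8.11 in control cells and at 7.79 and 7.63 in knockout cells, a change of -0.36 (SE 0.10) that did not pass over all probe sets (adjusted p = 0.085 in limma) and passed over genes (0.043); where this probe set lies relative to the guide was not analysed here. Array medians were 5.01 to 5.02. Over all probe sets, which are not independent replicates, Pearson's r was 0.995 for the control pair, 0.996 for the knockout pair and 0.981 to 0.984 for pairs across groups. Of 6 epithelial markers, EPCAM, KRT8, KRT18 and KRT19 had control means of 11.79 to 13.27, CLDN4 of 9.55 and CDH1 of 7.27; KRT19 rose by 0.61 and CLDN4 fell by 0.46. Of 6 fibroblast markers, COL1A1 rose by 1.56 to a knockout mean of 10.13 and LUM by 1.37 to 3.75 on their brightest probe sets. COL1A1 rose on 2 of its 5 probe sets and LUM on 1 of 2. COL1A2 (-0.31), THY1 (-0.27), DCN (0.12) and PDGFRB (0.06) did not pass. Of 4 leukocyte markers CSF1R fell by 0.63, from a control mean of 6.39, and none of 4 endothelial markers passed. What part such differences had in the members' values was not tested.

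The knockout arrays read higher for DANCR and lower for MALAT1, while the probe sets of MEG3, PVT1 and GAS5 did not pass the test. DANCR rose 1.61-fold on its only probe set. All 12 MALAT1 probe sets had lower knockout means, by 1.23-fold to 1.97-fold, but only 1 passed the test, and the knockout arrays differed from each other on all 12. Of the 25 member probe sets 1 rose and 1 fell (limma, adjusted p below 0.05). Among all probe sets 6.68% rose, 6.38% fell and 13.1% did either, so the members' count was no higher than the array's share. At an unadjusted p below 0.05 there were 11 of 25 member probe sets, against 27% of all probe sets; 9 of the 11 were MALAT1 probe sets, all lower, where 12.6% of all probe sets were lower by this measure.

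**Figure D1:**
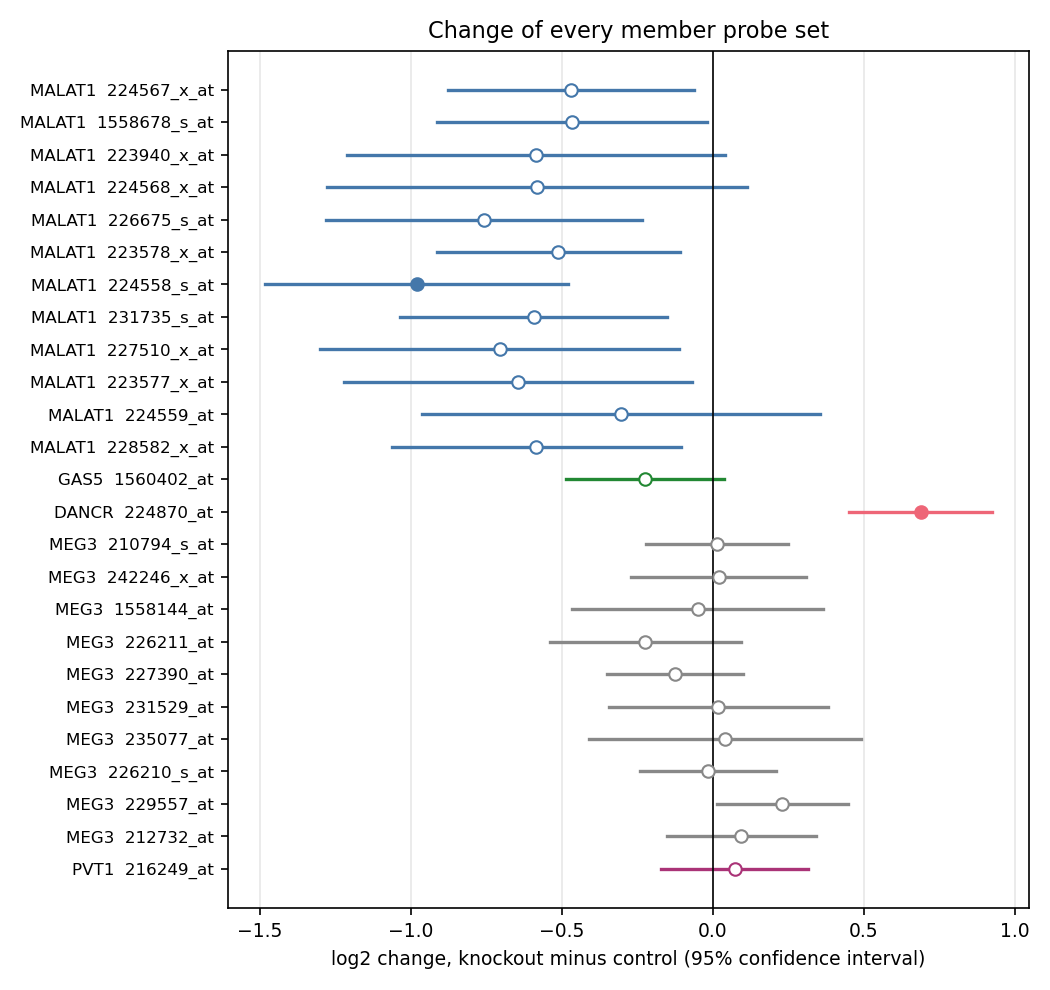
Log2 change (knockout minus control) of each of the 25 member probe sets with its 95% confidence interval from limma; filled points passed an adjusted p below 0.05, and colours mark the gene. DANCR (0.69) lies to the right of 0 and the points of all 12 MALAT1 probe sets lie to the left. Intervals of GAS5 and PVT1, of 9 of 10 MEG3 probe sets and of MALAT1 223940_x_at, 224568_x_at and 224559_at include 0.

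The DNA around the annotated starts of DANCR and MALAT1 is shown because their probe sets were the ones that passed the test. RefSeq windows (GRCh38.p14) hold 250 bases before and 50 after the start, and 4 of the 5 measured genes had one. The DANCR window is chr4:52712144-52712443 on the plus strand. The MALAT1 windows are chr11:65497488-65497787 and chr11:65498795-65499094, also on the plus strand, the latter for a start inside the gene. Capitals mark matches, on either strand, to the CCAAT box, to the Sp1-type letters GGGCGG or to the TATA box letters TATAAA.
DANCR: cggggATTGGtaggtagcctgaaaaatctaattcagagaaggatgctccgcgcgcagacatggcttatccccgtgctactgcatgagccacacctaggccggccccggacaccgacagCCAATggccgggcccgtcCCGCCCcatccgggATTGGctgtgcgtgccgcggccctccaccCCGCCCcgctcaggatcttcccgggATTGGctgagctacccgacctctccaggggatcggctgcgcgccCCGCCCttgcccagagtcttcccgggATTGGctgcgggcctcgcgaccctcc
MALAT1 first start: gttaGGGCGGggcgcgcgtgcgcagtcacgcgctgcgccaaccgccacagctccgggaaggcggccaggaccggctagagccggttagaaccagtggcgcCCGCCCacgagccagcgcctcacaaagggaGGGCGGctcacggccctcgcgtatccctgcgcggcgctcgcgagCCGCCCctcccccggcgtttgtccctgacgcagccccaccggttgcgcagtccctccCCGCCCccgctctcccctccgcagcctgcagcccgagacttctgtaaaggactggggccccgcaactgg
MALAT1 second start: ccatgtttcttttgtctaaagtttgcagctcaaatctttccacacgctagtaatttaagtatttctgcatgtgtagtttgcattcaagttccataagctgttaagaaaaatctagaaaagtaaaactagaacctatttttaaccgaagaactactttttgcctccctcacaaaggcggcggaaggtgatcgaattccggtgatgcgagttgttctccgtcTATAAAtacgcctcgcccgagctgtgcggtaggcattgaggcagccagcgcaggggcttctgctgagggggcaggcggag

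The DANCR window held 5 matches to CCAAT and 3 to GGGCGG. At least 5 CCAAT matches were present in 0.359% of the 35116 windows of this length, and at least 1 in 34.6%. The first MALAT1 window held 5 matches to GGGCGG; at least 5 were present in 5.14% of windows and at least 1 in 45%. The second held 1 match to TATAAA, found in 11.5% of windows. The E-box letters CACGTG, the ATF4-type letters TGATGNAA, the CREB-type letters TGACGT, the ETS-type letters CCGGAAGT and the NRF1 consensus were searched for on both strands too, and none of them occurred in the 3 windows; 7.26%, 3.62%, 7.98%, 4.14% and 1.24% of all windows held them. Many snoRNA hosts start within a run of pyrimidines. The longest run reaching within 5 bases of the annotated start was 5 bases in DANCR and 3 in GAS5. Neither run included the start base: the DANCR run began 1 base after it, and the GAS5 run ended just before it. At the first MALAT1 start the run was 11 bases and included the start base. At the second it was 2 bases and began 5 bases after the start. How common such runs are over all windows was not counted. DANCR (27 CpG dinucleotides) and the first MALAT1 window (37) were richer in CpG than 71.8% and 88.7% of windows, against 14 CpG at the second MALAT1 start. A match describes letters only, and binding was not measured here.

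DANCR, a snoRNA host gene whose spliced RNA is known for keeping epidermal progenitors undifferentiated, spans chr4:52712394-52720697. Its probe set 224870_at read 9.13 and 9.04 in control cells and 9.74 and 9.82 in knockout cells (log2 intensity). Both knockout arrays were above both control arrays, an order seen in 26.9% of all probe sets. The mean rose from 9.09 ± 0.07 to 9.78 ± 0.06 (SD, n = 2), a change of 0.69 (SE 0.09, 95% confidence interval 0.45 to 0.92, adjusted p = 0.013 in limma). When any 1 array was left out the change stayed between 0.64 and 0.73, but the adjusted p over all probe sets was 0.079 to 0.16. With 1 probe set per gene the call held without control 1 (adjusted p = 0.033) and without control 2 (0.040), and was lost without knockout 1 (0.065) and without knockout 2 (0.076). Scaling the arrays to reference genes lowered the change to 0.39.

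MALAT1, at chr11:65497738-65506516, was read at intensities from 6.23 to 12.73. Its brightest probe set, 224567_x_at, stood at 12.73 and 12.67 in control cells and at 12.44 and 12.02 in knockout cells. It changed by -0.47 (SE 0.16, adjusted p = 0.14 in limma). The probe set that passed the test, 224558_s_at, stood at 9.28 and 9.09 in control cells and at 8.47 and 7.94 in knockout cells. It fell by 0.98 (SE 0.20, 95% confidence interval -1.48 to -0.48, adjusted p = 0.037), or 1.97-fold. Leaving out any 1 array ended that call (adjusted p 0.12 to 0.18), with the change between -0.72 and -1.24.

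The other MALAT1 probe sets changed by less than 224558_s_at. 226675_s_at read 10.99 and 11.28 in control cells and 10.64 and 10.12 in knockout cells, a change of -0.76 (SE 0.20, adjusted p = 0.080 in limma). 227510_x_at read 8.74 and 8.72 in control cells and 8.37 and 7.68 in knockout cells (-0.71, SE 0.23). The smallest change was that of 224559_at, the only MALAT1 probe set without a suffix for shared or cross-hybridizing probes, which read 7.89 and 7.30 in control cells and 7.54 and 7.05 in knockout cells (-0.30, SE 0.26, 95% confidence interval -0.96 to 0.36). It was also the only one whose knockout arrays overlapped the control arrays; in the other 11 both knockout arrays lay below both controls, an order found in 25.5% of all probe sets. The 7 probe sets with the suffix _x_at, which the manufacturer gives where probes may cross-hybridize, changed by -0.47 to -0.71, and the 4 with the suffix _s_at, given where probes match several transcripts, by -0.47 to -0.98. Where each probe set lies along the transcript was not analysed here.

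The 7 MALAT1 probe sets not yet given had the same order of arrays, knockout 2 below knockout 1 and knockout 1 below both controls. 1558678_s_at read 12.21 and 12.04 in control cells and 11.88 and 11.43 in knockout cells. 223940_x_at read 11.87 and 11.56 in control cells and 11.46 and 10.80 in knockout cells. 224568_x_at was closest to overlap, with 11.51 and 11.02 in control cells and 11.01 and 10.35 in knockout cells. In these 3 bright probe sets, as in all 12, knockout 2 lay further below the control mean than knockout 1. 223578_x_at read 9.12 and 9.15 in control cells and 8.83 and 8.41 in knockout cells. 231735_s_at read 8.67 and 8.82 in control cells and 8.38 and 7.92 in knockout cells. In both, the control arrays lay closer together than the knockout arrays. 223577_x_at read 8.29 and 8.35 in control cells and 8.01 and 7.35 in knockout cells. The dimmest, 228582_x_at, read 7.10 and 7.06 in control cells and 6.76 and 6.23 in knockout cells. The 7 changes ran from -0.47 to -0.65, and none passed the test (adjusted p 0.096 to 0.26 in limma).

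The spread between the knockout arrays sets how firmly MALAT1 can be described. Knockout 2 was lower than knockout 1 in all 12 probe sets, by 0.42 to 0.68. A difference between the knockout arrays of at least 0.42 in either direction was found in 4.85% of all probe sets, and with knockout 2 lower in 3.16%. Means of the MALAT1 probe sets ran from 6.79 to 12.46. Among probe sets with a mean of at least 7, 1.23% had such a difference in either direction. Relative to the control mean, knockout 1 had a median difference of -0.31 and knockout 2 of -0.88. The control arrays differed by -0.29 to 0.59 and in no common direction, control 1 being higher in 8 of 12. The median SE of the MALAT1 probe sets was 0.20, against 0.11 for all probe sets. The 12 probe sets read 1 RNA on the same arrays and are not replicates. Averaged into 1 value per gene, MALAT1 changed by -0.60 (adjusted p = 0.058 over 19775 genes in limma). The number of MALAT1 probe sets past the test moved with the fit. It was 5 with an intensity trend in the prior and 7 when only probe sets with a mean of at least 6 were tested. It was 2 with the replicate block and 11 under reference gene scaling. All of the 12 changes were negative under each of these. Falls among all probe sets moved too, from 3485 of 54613 to 4597 with the trend and 2797 with the block. With the filter 4392 of 19536 fell. Under reference gene scaling 18840 of 54613 fell, and the median change of all probe sets was -0.30.

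**Figure D2:**
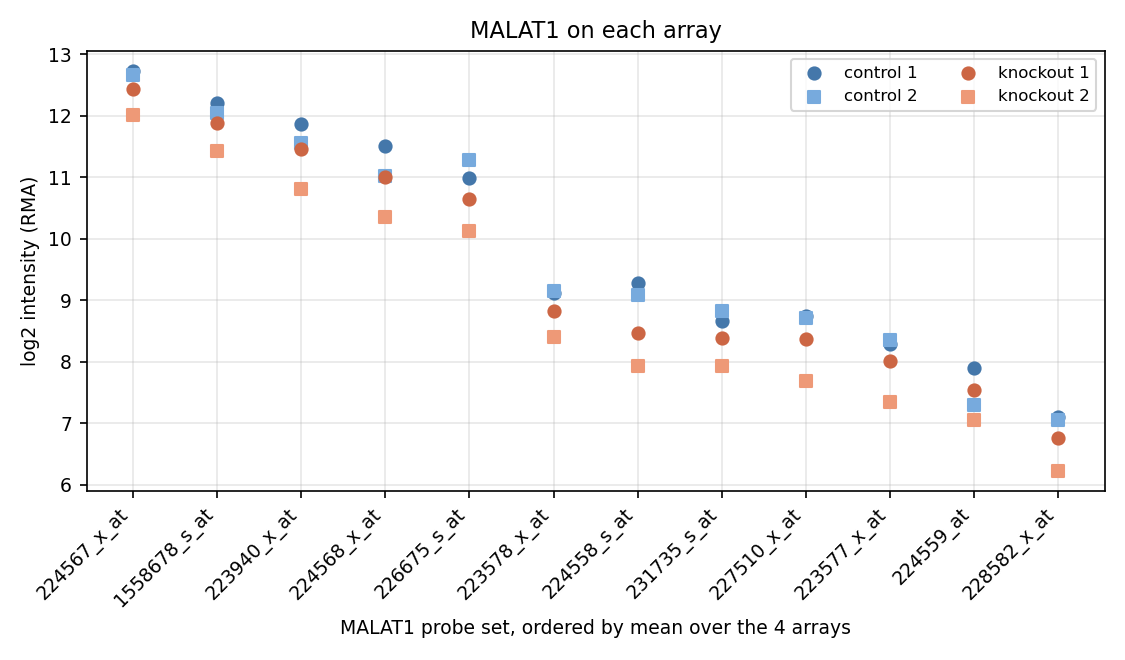
Log2 intensity of the 12 MALAT1 probe sets on each of the 4 arrays, ordered by mean; circles are replicate 1 and squares replicate 2, blue for control and orange for knockout. Knockout 2 is the lowest array in every probe set, and in 11 of 12 both knockout arrays lie below both control arrays.

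GAS5, named for its build-up in growth-arrested cells and a host of several snoRNAs, spans chr1:173863901-173869045. The probe set 1560402_at read 6.63 and 6.73 in control cells and 6.38 and 6.54 in knockout cells. Both knockout arrays lay below both controls, an order found in 25.5% of all probe sets. The difference of -0.22 (SE 0.10, 95% confidence interval -0.49 to 0.04) did not pass the test (adjusted p = 0.25 in limma). Under reference gene scaling it was -0.52 (adjusted p = 0.021), and the other settings left it uncalled.

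MEG3, whose gene spans chr14:100826108-100861026, was read by 10 probe sets, of which 9 had a mean below the median probe set's 5.02. The brightest, 210794_s_at, stood at 5.83 and 5.87 in control cells and at 5.92 and 5.81 in knockout cells, a difference of 0.01 (95% confidence interval -0.22 to 0.25). The remaining 9 read between 3.06 and 4.34 on every array. Whether any of these exceeded background was not tested, since detection calls were not used here. Changes ran from -0.22 (226211_at) to 0.23 (229557_at) with a median of 0.02, 6 being positive and 4 negative. 229557_at read 3.09 and 3.11 in control cells and 3.34 and 3.32 in knockout cells; its adjusted p of 0.16 was the lowest of the 10 in limma. The intervals of the 10 probe sets reached no lower than -0.54 and no higher than 0.49. They describe the signal of these probe sets, not the amount of MEG3 RNA. Under reference gene scaling 226211_at (-0.52), 227390_at (-0.42) and 226210_s_at (-0.32) passed as lower (adjusted p 0.028, 0.024 and 0.047 in limma). With that scaling 18840 of all 54613 probe sets fell.

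PVT1, at chr8:127794524-128101256, was read at 4.94 and 4.79 in control cells and at 4.94 and 4.94 in knockout cells by 216249_at. The values of control 1, knockout 1 and knockout 2 were identical as deposited; the knockout arrays held identical values in 494 of 54613 probe sets. The difference was 0.07 (SE 0.10, 95% confidence interval -0.17 to 0.32, adjusted p = 0.72 in limma). Its neighbour MYC, a transcription factor of cell growth, rose by 0.49 (SE 0.10, adjusted p = 0.043), from 10.54 and 10.35 to 10.91 and 10.95. With 1 probe set per gene, the MYC call held without control 1 and was lost with any other array left out, and under reference gene scaling no partner gene of the H19, MEG3 and PVT1 loci passed the test. Among these partners MYC was the only one of 6 measured to pass; the imprinted genes KCNQ1OT1 (-0.20), CDKN1C (0.15), DLK1 (-0.13), DIO3 (-0.06) and MEG9 (0.03) did not.

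The other snoRNA host lncRNAs were set beside DANCR and GAS5. Of 23 listed, 10 were measured by a probe set with 1 gene, each gene by its brightest; 3 rose and 3 fell, where 8.74% of all 19775 genes rose and 8.58% fell. Both knockout arrays lay above both controls for 4 of the 10 and below for 3, against 29.1% of all genes in each direction. SNHG32 read 11.12 on both control arrays and 9.71 and 9.65 on the knockout arrays, and fell by 1.44 (SE 0.09, adjusted p = 0.0024 in limma), or 2.71-fold. EPB41L4A-AS1 read 10.32 and 10.33 in control cells and 9.42 and 9.51 in knockout cells and fell by 0.86 (SE 0.09), but its dimmer probe set rose by 0.52, from 5.72 and 5.66 to 6.24 and 6.17. ZFAS1 fell by 0.71 (SE 0.10), from 12.51 and 12.61 to 11.79 and 11.92. Its probe sets 224915_x_at and 226835_s_at fell by 0.68 and 0.76, and the dimmer 229899_s_at changed by 0.70 without passing the test (adjusted p = 0.070 in limma).

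SNHG19 rose by 0.83 (SE 0.09), from 7.65 and 7.70 to 8.51 and 8.48. SNHG4 rose by 0.64 (SE 0.09), from 4.38 and 4.34 to 4.99 and 4.99, at an intensity below the median probe set's 5.02. SNHG18 rose by 0.55 (SE 0.09), from a mean of 5.98 ± 0.02 to 6.54 ± 0.05 (SD, n = 2), and did not pass under reference gene scaling (0.25, adjusted p = 0.072 in limma). In these 6 genes the knockout and control arrays did not overlap on the brightest probe set. The remaining SNHG22 (0.18), SNHG17 (0.05), SNHG28 (-0.02) and SNHG10 (-0.01) did not pass. The host RNAs thus went both ways, with a median change of 0.02 beside -0.01 for all genes. With 1 probe set per gene SNHG32 kept its call without each array in turn (highest adjusted p 0.035), whereas the other 5 lost theirs without either knockout array.

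**Figure D3:**
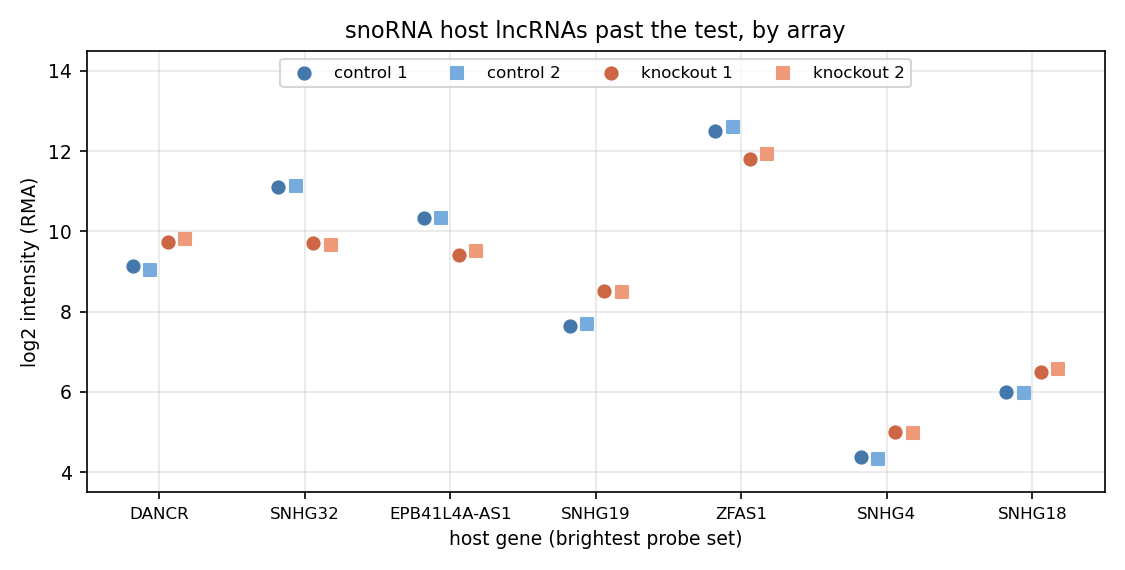
Log2 intensity on each array for DANCR and the 6 other snoRNA host lncRNAs that passed the test, each by its brightest probe set with 1 gene; circles are replicate 1 and squares replicate 2. DANCR, SNHG19, SNHG4 and SNHG18 sit higher on both knockout arrays, and SNHG32, EPB41L4A-AS1 and ZFAS1 sit lower.

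Protein-coding hosts of snoRNAs, most of them genes of ribosomal proteins and translation factors, mostly did not pass on the deposited scale. On that scale 8.74% of all genes rose and 8.58% fell. Of 28 listed hosts, 12 were measured. TAF1D, a factor of ribosomal RNA transcription, rose by 0.95 (SE 0.15) and the elongation factor EEF2 fell by 0.39 (SE 0.09). The list median was -0.08. Both knockout arrays lay below both controls for 8 of the 12 and above for 3, against 29.1% of all genes in each direction. Under reference gene scaling 1 host rose and 8 fell (median -0.38), and with the intensity trend 2 rose and 5 fell. Among all 54613 probe sets 1947 rose and 18840 fell with that scaling, and 5340 rose and 4597 fell with the trend. The EEF2 call was lost with the replicate block (adjusted p = 0.078 in limma). Proteins that bind snoRNAs had both knockout arrays above both controls for 7 of 10, an order seen in 29.1% of all genes. Only NHP2, of the box H/ACA particles, rose (0.62, SE 0.10, adjusted p = 0.021 in limma). That count depended on the fit. It was 6 with the intensity trend, with the filter on dim probe sets, with 1 probe set per gene and with 1 averaged value per gene. With only probe sets of 1 symbol it was 4. Rises over the array were 5170 of 19536 probe sets with the filter and 3897 of 41091 with 1 symbol. Over 19775 genes they were 2459 with 1 probe set per gene and 2415 with averaged values. The median of the 10 proteins was 0.36, and 0.06 under reference gene scaling, where 0 rose and 1 fell. Nonsense-mediated decay degrades many spliced host RNAs. Of 10 of its factors measured, the decapping adaptor PNRC2 (-0.47, SE 0.09) and the exonuclease XRN1 (-0.38, SE 0.08) fell on their brightest probe sets and none rose, with a median of -0.02. XRN1 fell on 1 of its 4 probe sets, the others changing by -0.30, -0.03 and 0.34 without passing, and its mean over probe sets changed by -0.09 (adjusted p = 0.49 in limma). Both calls were lost with the replicate block (adjusted p = 0.059 for PNRC2 and 0.080 for XRN1 in limma) and with any array left out, also over genes. Under reference gene scaling 5 of the 10 fell.

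Genes of the nuclear bodies that MALAT1 and NEAT1 belong to had positive median changes on the deposited scale, which reference gene scaling brought near 0. Of 16 measured paraspeckle proteins 5 rose and none fell, where 8.74% of all genes rose and 8.58% fell. The median of 0.27 became -0.03 under reference gene scaling, where 3 rose. With the intensity trend 10 rose, with the filter on dim probe sets 9, and with 1 averaged value per gene 2. Over the whole array 5340 of 54613 probe sets rose with the trend and 5170 of 19536 with the filter, as did 2415 of 19775 averaged genes. PSPC1, a core paraspeckle protein, rose by 0.89 (SE 0.09) on its brightest probe set, from 9.39 and 9.44 to 10.34 and 10.27, but of its 5 probe sets 2 rose and 2 fell. RBM14 rose by 0.75 (SE 0.10), from 8.10 and 7.94 to 8.73 and 8.80. HNRNPH3 rose by 0.70 (SE 0.09) on its brightest probe set and by 0.70 to 0.82 on the other 3. TARDBP, which encodes TDP-43, rose by 0.51 (SE 0.09) on its brightest probe set, while its others changed by 0.55 and 0.07 without passing. NUDT21 rose by 0.48 (SE 0.10) on its brightest probe set, while its others changed by -0.08 and 0.33 without passing.

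Of 9 measured nuclear speckle proteins 2 rose, the splicing factors SRSF7 (0.52, SE 0.11) and RBM25 (0.50, SE 0.09), and none fell. Among all genes 8.74% rose and 8.58% fell. The list median of 0.25 became -0.05 under reference gene scaling, where none of the 9 rose. With the intensity trend 6 rose, with the filter 5, with 1 averaged value per gene 4 and with the replicate block 1. Among all probe sets 5340 of 54613 rose with the trend, 5170 of 19536 with the filter and 3052 of 54613 with the block. Of 19775 averaged genes 2415 rose. RBM25 rose on 4 of 7 probe sets, while the other 3 SRSF7 probe sets changed by -0.17 to 0.02. The reference genes themselves read higher, with a median change of 0.33 over 11 measured. Both knockout arrays lay above both controls for 10 of them, against 29.1% of all genes. Scaling to the reference genes moved the median of all probe sets from 0.00 to -0.30. The 8 lists of host, particle, decay, nuclear body, locus and lncRNA genes held 97 measured genes. In these lists, as over the whole array, fewer genes passed with an array left out, and both counts are given at the end.

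**Figure D4:**
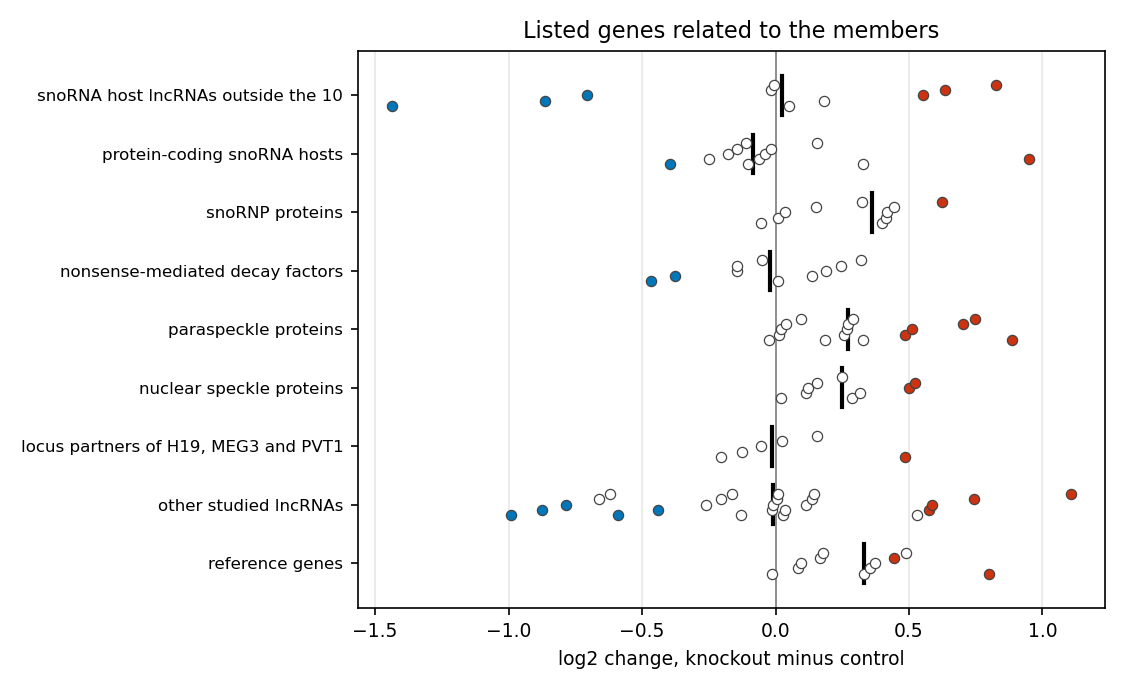
Log2 change (knockout minus control) of each measured gene in the lists related to the members, by its brightest probe set; red genes rose and blue genes fell at an adjusted p below 0.05, open circles did not pass, and black bars are list medians. Host lncRNAs and other lncRNAs spread to both sides of 0, while paraspeckle and speckle proteins lie mostly to the right, as do the reference genes.

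Other well-studied lncRNAs gave 4 that rose and 5 that fell among 25 measured of 30 listed, with a median of -0.01, where 8.74% of all genes rose and 8.58% fell. Under reference gene scaling 2 rose and 11 fell, with a median of -0.31. Among all 54613 probe sets 1947 rose and 18840 fell under that scaling. MIR31HG rose by 1.11 (SE 0.11), from 6.39 and 6.16 to 7.38 and 7.38, or 2.15-fold. TP53TG1 rose by 0.74 (SE 0.08), as did its other probe sets, by 0.52 and 0.77. ZEB1-AS1 fell by 0.99 (SE 0.10), from 4.49 and 4.45 to 3.55 and 3.40, at intensities below the median probe set's 5.02. OIP5-AS1, also called cyrano, fell by 0.88 (SE 0.09), from 9.71 and 9.66 to 8.79 and 8.82, and its other probe sets fell by 0.93 and 0.61. LINC01133 fell by 0.78 (SE 0.14), from 8.37 and 8.08 to 7.33 and 7.55, and its dimmer probe set changed by -0.36 without passing. By their brightest probe sets, DLEU1 (0.59) and UCA1 (0.57) also rose, and HCG18 (-0.59) and NORAD (-0.44) also fell.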

How the data were processed

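Expression was measured on 4 arrays of one platform, 2 of control and 2 of PRMT6-knockout AGS cells, grouped by the sample labels. The authors deposited 1 table of log2 intensities, and the submitters' processing notes name RMA and affy. Values ran from 1.64 to 14.16, which fits log2. Total RNA was amplified with a 3′ in vitro transcription kit, per the labels' protocols. RMA's quantile step makes each difference relative to other transcripts. Detection calls were not used here, and precision is limited by having 4 arrays.

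The platform annotation gave gene names, with symbols updated by Entrez number to the RefSeq table of GRCh38.p14: 41091 had 1 symbol, 1801 had several, and 11721 had none listed. All 54613 probe sets were fitted with limma 3.58.1 in R 4.3.3 (lmFit, eBayes, no covariates), with Benjamini-Hochberg adjustment over all and a threshold of 0.05; the prior added 3.04 to 2 residual degrees of freedom. Listed genes were represented by their brightest probe set with 1 symbol, giving 19775 genes. The script was tested on simulated data. Named genes were every member probe set, PRMT6 and up to 4 called genes with the largest change per list (the 2 largest where none was called); genes beyond these were named to complete a count and chosen after their values were seen. The members and lists were chosen with earlier results of these data known. Alternatives were reference gene scaling, an intensity trend, a filter on dim probe sets, other sets of probe sets, the replicate number as a block and each array left out.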

Additional observations from a re-analysis of the deposited data

How the results depend on the processing

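Numbers of probe sets past the test depended on what was tested and on the scale. Of all probe sets, 3649 rose and 3485 fell as reported; under reference gene scaling 1947 rose and 18840 fell, so that rises were no longer near equal to falls. With 1 probe set per gene 2281 fell, with 1 averaged value per gene 2415 rose and 1986 fell, and with only probe sets lacking the _s_at or _x_at suffix 1783 rose and 1863 fell. With an array left out, 0 probe sets passed in either direction in limma over all probe sets, while 9786 to 13946 had an unadjusted p below 0.05; over genes 1025 to 1371 rose and 1201 to 1258 fell without a control array, and 154 to 196 rose and 354 to 374 fell without a knockout array. The fits over genes with an array left out were chosen after seeing the data. A lone array is assumed to vary like the other group.

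Member probe sets that fell numbered 1 as reported, 15 under reference gene scaling, 5 with an intensity trend, 7 with the filter on dim probe sets, 2 with the replicate block and 0 with 1 value per gene, without suffixed probe sets or with an array left out. Member probe sets that rose numbered 1, and 0 to 1 with an array left out. Of the 97 listed genes, 17 rose and 11 fell as reported. Rises numbered 8 under reference gene scaling, 33 with an intensity trend, 30 with the filter, 11 without suffixed probe sets and 0 to 17 with an array left out. Falls numbered 28, 17, 12, 7 and 0 to 9 in the same settings, and 5 with the replicate block.

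PRMT6 passed under reference gene scaling (-0.66) and, at -0.36, with an intensity trend, the filter, 1 probe set per gene or the mean of probe sets.

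Differences near 0 changed sign. Under reference gene scaling, MEG3 210794_s_at was at -0.29, 242246_x_at at -0.28, 231529_at at -0.28, 235077_at at -0.26, 229557_at at -0.070, 212732_at at -0.21 and PVT1 at -0.23. With an array left out, 210794_s_at ran from -0.042 to 0.070 (-0.0078 without control 1), 242246_x_at from -0.10 to 0.14, 1558144_at from -0.27 to 0.17, 231529_at from -0.15 to 0.19, 235077_at from -0.20 to 0.28 and 226210_s_at from -0.055 to 0.024. The labels do not say that replicate numbers pair the arrays, and deviations of same-numbered arrays correlated at 0.23 across probe sets; the replicate block left 3052 rises and 2797 falls among all probe sets.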
